A study of Oryza sativa Japonica Group with 238 samples.

Results

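Ribosome-bound RNA from roots of the rice line LSI1 was compared between a paddy field and greenhouse pots, in 6 of the 187 RNA libraries of a rice root atlas that holds 238 libraries in all. The 3 field and 3 greenhouse libraries were taken by their labels, but the comparison was chosen with earlier results of these data known. All 6 came from the cultivar Nipponbare carrying the transgene pLSI1:HF-GFP-OsRPL18, a ribosomal protein L18 with FLAG and GFP tags under the promoter of LSI1. Tagged ribosomes were captured with anti-FLAG beads, and the poly(A) RNA bound to them was sequenced from random primers, a method called TRAP (translating ribosome affinity purification). Field plants were transplanted at 14 days and their roots were taken after 35 days in the field, at 49 days of age. Greenhouse plants, the group named control I, grew in well-watered pots with fertilizer that contained nitrogen, and their roots were taken at 26 days. The 21 plants of a pot made 1 greenhouse replicate. Field replicates were independent and randomized according to the design text, which does not say how many plants each held. Age, site, soil and water regime all differed between the groups and cannot be told apart here. Waterlogged pots of the same line, flooded above the root/shoot junction, served as a second reference, and the lines 35S, RSS1 and QHB, which carry the tag under other promoters, showed where the field difference differed by line.

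LSI1 is the silicon influx transporter of rice, and its promoter is active in the exodermis and endodermis of the root. These layers carry Casparian strips and suberin, which seal the path between cells, so that water and ions must pass through membrane channels and transporters such as aquaporins, nitrate and ammonium transporters, and LSI1 itself. In flooded soil ammonium is the main form of inorganic nitrogen, and ferrous iron becomes soluble, whereas drained soil favours nitrate and ferric iron.

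Levels are TPM (transcript abundance scaled to a fixed total per library) as the authors deposited them after quantile normalization, which gives every library nearly the same set of values. Column totals were 999994 to 1000051 TPM, so the depth of a library is unknown. Differences are on the log2(TPM + 1) scale, which understates changes of low genes, and a gene was called at a limma adjusted p under 0.05 with a difference of at least 1 in size. Pearson correlations of log2(TPM + 1) between libraries were 0.917 to 0.943 among field libraries, 0.955 to 0.969 among control I libraries and 0.901 to 0.932 between the groups. The tagged gene's own transcript, RPL18 (OS03G0341100), stood at 7198, 4753 and 119200 TPM in field replicates 1 to 3 and at 12870, 117600 and 12910 TPM in control I. It ranked first in field replicate 3 and control I replicate 2. The first rank went to a cytosolic glutamine synthetase in field replicate 1, a glyceraldehyde-3-phosphate dehydrogenase (OS02G0601300) in field replicate 2 and a plasma membrane aquaporin in control I replicates 1 and 3. The level of a gene at the first rank is set by the normalization.

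Of 26069 genes tested, 1666 (6.39%) were called, 585 higher (2.24%) and 1081 lower (4.15%) in the field. The count was 990 without control I replicate 3 and 946 in a fit of the 6 libraries alone, of which 877 were among the 1666. With each library left out in turn, 628 of the 1666 genes, 183 higher and 445 lower, were called in all 6 fits. The median difference over all tested genes was 0.011. All 3 field libraries lay above all 3 control I libraries in 3996 genes (15.3%) and below them in 3815 (14.6%).

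**Figure D1:**
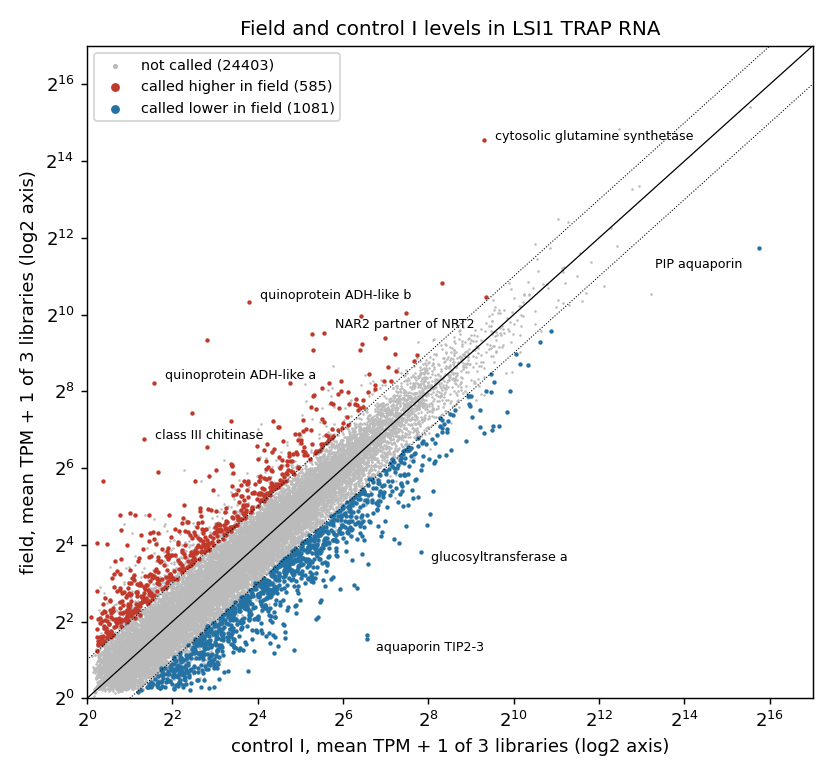
Mean level of each of the 26069 tested genes in 3 control I libraries (x axis) and 3 field libraries (y axis), as TPM + 1 on log2 axes, with called genes in red (585 higher) and blue (1081 lower). The solid line marks equal levels and the dotted lines a difference of 1 on the log2 scale; quinoprotein genes and a glutamine synthetase lie far above the line, and 2 aquaporins far below it.

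The defining genes of the LSI1 cells were present in every library. LSI1 (OS02G0745100) stood at 5885, 1867 and 8618 TPM in the field and at 2409, 2599 and 2415 TPM in control I. Its efflux partner LSI2 (OS03G0107300), which passes silicon on towards the stele, stood at 4680, 1220 and 11280 TPM in the field and at 2041, 2501 and 1724 TPM in control I. The manganese and cadmium transporter NRAMP5 (OS07G0257200) ranged from 643 to 1521 TPM in the field and from 795 to 848 TPM in control I. For all 3 genes field replicate 2 lay below every control I library and the other field libraries above, and none passed the test (LSI1 0.88, adjusted p = 0.44; LSI2 0.96, adjusted p = 0.385; limma). Among markers of other cell types, QHB (quiescent centre) and the root hair beta-expansin 5 (OS04G0552200) were under 1 TPM in each library, and the epidermis and root hair pair, which adds a bHLH gene (OS06G0184000), summed to 0.592 to 3.52 TPM in the field and 1.37 to 3.85 TPM in control I. The 3 ground tissue and stele factors were higher, at 147 to 213 TPM in the field and 139 to 173 TPM in control I. Meristem markers summed to 12.5 to 32.7 and 21.3 to 23.8 TPM, secondary wall markers to 21.2 to 29.7 and 18.7 to 31.2 TPM, and xylem and pericycle markers to 8.86 to 11.8 and 14.8 to 21.8 TPM, in field and control I. The 6 leaf mesophyll genes summed to 20.0 to 30.3 TPM in the field and 23.9 to 54.9 TPM in control I. None of these marker genes was called against control I. Against the waterlogged pots, 1 of 3 meristem, 1 of 2 xylem and pericycle and 1 of 6 leaf mesophyll markers were called lower in the field. Of all genes, 5.83% were lower in that comparison. The xylem and pericycle marker HMA5 (OS04G0556000) kept that call under all 15 alternatives, and the others (OS01G0805600 and OS01G0600900) each lost it under 5. The part of the markers in the results below was not tested. In bulk RNA a lower level may reflect fewer cells of a type or less RNA per cell, and these cannot be told apart.

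Genes that take up and assimilate nitrogen were among the largest rises. Of 28 tested genes of ammonium uptake and assimilation, 7 were called higher (25.0%, beside 2.24% of all genes) and 1 lower, although the median over all 28 was -0.045, so that the higher calls were a subset. With 1 library left out, 3 to 6 were called higher. Cytosolic glutamine synthetase (OS03G0223400), which binds ammonium into glutamine, stood at 66370, 3788 and 1881 TPM in the field and at 885, 470 and 531 TPM in control I. Every field library was above every control I library, and field replicate 1 held the gene at its first rank. The difference was 3.69 (SE 0.88, adjusted p = 0.014), and 2.14 without field replicate 1. The call was lost without control I replicate 2 (adjusted p = 0.0545) or 3 (adjusted p = 0.0517) and in the fit of the 6 libraries alone (adjusted p = 0.108). Asparagine synthetase (OS03G0291500), which makes the nitrogen transport compound asparagine, stood at 1228, 249 and 142 TPM in the field and at 73.5, 27.6 and 13.8 TPM in control I. These groups did not overlap either (3.48, SE 0.75, adjusted p = 0.00814), and the call was lost in the fit of the 6 libraries alone (adjusted p = 0.0561).

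Of the 7 risen genes, 4 encode ammonium transporters. OS02G0620600 stood at 688, 514 and 399 TPM in the field and at 126, 44.7 and 79.0 TPM in control I (2.75, SE 0.52, adjusted p = 0.00415). The gene model OS02G0620566 beside it, named hypothetical, had nearly the same levels (596 and 86.6 TPM on average), so reads of the pair cannot be told apart. OS04G0509600 stood at 52.1, 30.1 and 28.2 TPM in the field and at 13.9, 10.2 and 14.1 TPM in control I (1.42, adjusted p = 0.0093). Both genes were called in every fit with a library left out. The other two were less stable. OS02G0620500, similar to AMT1;2, stood at 229, 419 and 61.2 TPM against 22.9, 39.9 and 54.8 TPM, with field replicate 3 close to control I (2.26, adjusted p = 0.0368), and it was called with field replicate 3 left out but with no other library left out (adjusted p from 0.0595 to 0.135). OS01G0831300 rose from 0.239 to 2.10 TPM in control I to 4.54 to 8.55 TPM in the field (2.06, adjusted p = 0.0174), and lost its call without field replicate 1 (adjusted p = 0.0583), control I replicate 2 (0.0597) or control I replicate 3 (0.0823).

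Of 15 tested nitrate genes, 2 were called higher (13.3%, beside 2.24% of all genes) and none lower, with a median of 0.48. NAR2 (OS02G0595900), the partner protein that NRT2 nitrate transporters need, stood at 1413, 482 and 304 TPM in the field and at 91.0, 23.9 and 22.3 TPM in control I. All 3 field libraries lay above (3.98, SE 0.60, adjusted p = 0.00103), and the call was kept in all fits with a library left out. The NRT2-type nitrate transporter OS01G0704100 stood at 159, 36.6 and 100.1 TPM against 12.3, 16.9 and 23.6 TPM (2.23, adjusted p = 0.0459). With 1 library left out that transporter was called only in the fit without field replicate 2, and its adjusted p was 0.0793 to 0.161 in the other 5. Nitrite reductase (OS01G0357100), the chloroplast-type enzyme that reduces nitrite to ammonium, stood at 463, 322 and 131 TPM in the field and at 441, 62.6 and 38.0 TPM in control I, where replicate 1 reached the field range (adjusted p = 0.264). The same control I library held the most nitrate reductase (OS02G0770800), 68.4 TPM beside 7.203 and 8.28 TPM.

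**Figure D2:**
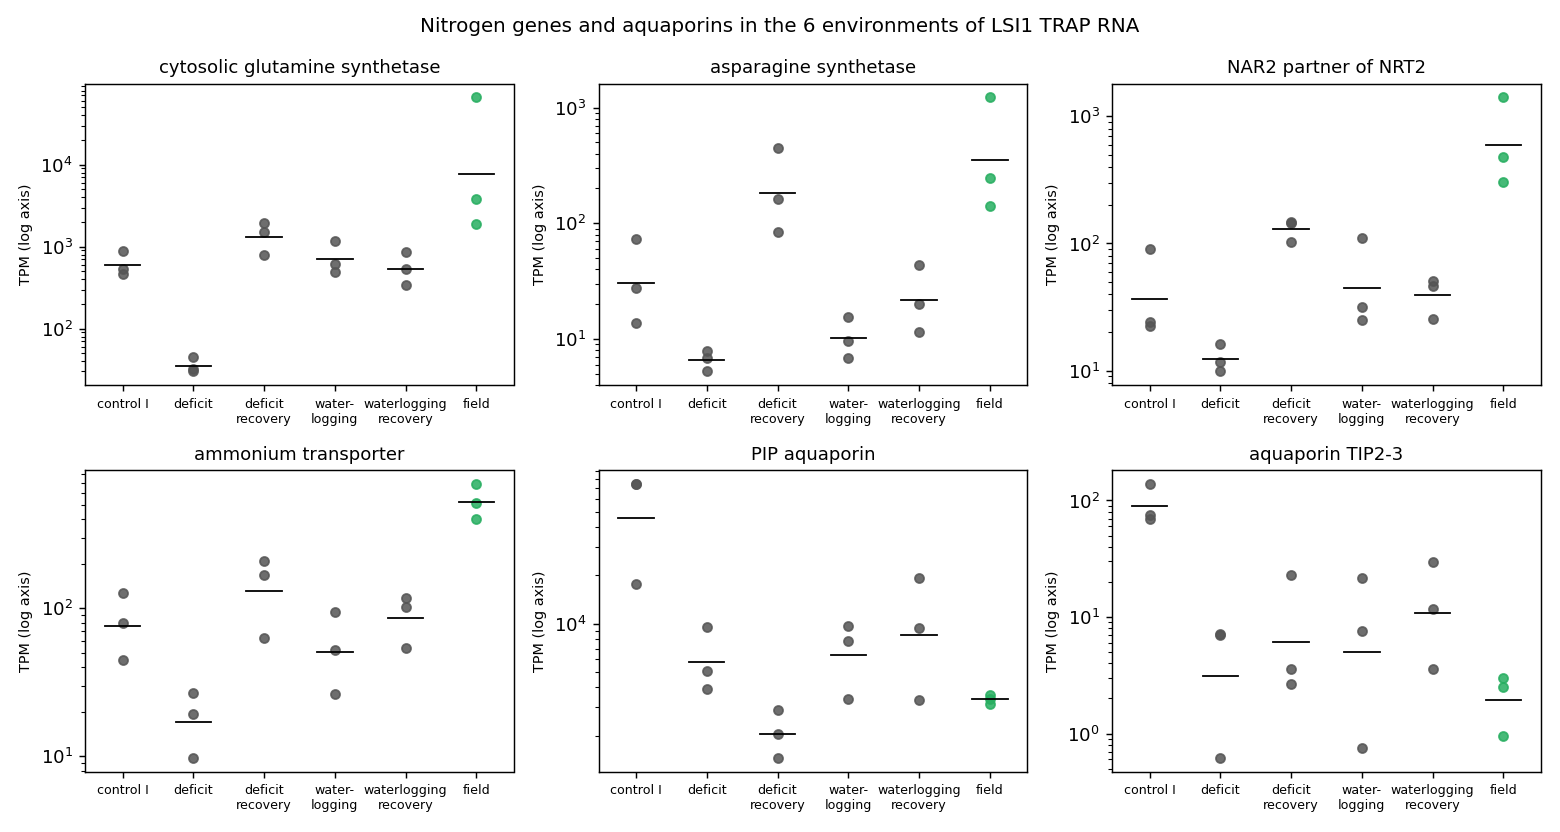
TPM on log axes in each of 3 libraries (points) for the 6 environments of the LSI1 line, with the field in green and the geometric mean as a bar. The 4 nitrogen genes have their highest mean in the field, and the 2 aquaporins their highest mean in control I.

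Across the 6 environments of the LSI1 line, glutamine synthetase averaged 629 TPM in control I, 35.8 in water deficit, 1411 in recovery from deficit, 760.0 in waterlogging, 577 in recovery from waterlogging and 24010 in the field. Asparagine synthetase followed the same order at its ends, with 6.63 TPM in deficit and 540 TPM in the field, and 230.2 TPM in recovery from deficit. NAR2 averaged 12.6 TPM in deficit, 132 TPM in recovery from deficit and 733 TPM in the field. The field mean of glutamine synthetase rests on replicate 1, at the first rank with 66370 TPM, a level set by the normalization. The other field libraries of that gene lay far lower, as given above.

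Aquaporins, the water channels of cell membranes, moved both ways: of 22 tested, 3 were called higher (13.6%, beside 2.24% of all genes) and 4 lower (18.2%, beside 4.15%). Leaving out 1 library gave 3 to 4 higher and 2 to 4 lower. The largest fall was in TIP2-3 (OS04G0550900), a channel of the vacuole membrane, at 2.97, 2.50 and 0.957 TPM in the field and 138, 69.1 and 74.7 TPM in control I (-4.91, SE 0.92, adjusted p = 0.00379). The adjoining hypothetical gene OS04G0550866 fell with it at nearly equal levels (1.92 and 93.6 TPM on average), and reads of the pair cannot be told apart. A plasma membrane aquaporin similar to maize PIP1-5 (OS02G0823100) stood at 3407, 3152 and 3603 TPM in the field and at 74150, 17620 and 74360 TPM in control I (-3.76, SE 0.74, adjusted p = 0.00498). The 3 field libraries were close to each other, and the lowest control I library was the one in which RPL18 held the first rank. In control I replicates 1 and 3 the PIP gene itself held the first rank, at a level set by the normalization. In both genes the control I libraries were the high ones: the other 4 environments of the LSI1 line averaged 4.93 to 14.9 TPM of TIP2-3 and 2123 to 10680 TPM of the PIP gene. Another tonoplast channel, OS03G0146100, fell from 569 to 838 TPM to 57.7 to 199 TPM (-2.57, adjusted p = 0.0182), and lost its call without field replicate 3 (0.0691) or control I replicate 2 (0.0643). In the opposite direction, the tonoplast gene OS05G0231700 rose from 18.9, 16.0 and 15.2 TPM to 48.3, 63.0 and 149.9 TPM (2.15, adjusted p = 0.00212), together with the neighbouring model OS05G0231600, whose levels were nearly the same. Reads of this pair cannot be told apart (r = 0.997), so these 2 higher calls may be 1 signal. The remaining higher gene, OS08G0151900, lost its call in the fit of the 6 libraries alone (limma adjusted p = 0.0633). The list was matched by words and holds OS07G0670600, a ribosome assembly factor named NIP7, which is no aquaporin.

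Iron acquisition was the list with the largest share of falls. Of 17 tested genes, 9 were called lower (52.9%, beside 4.15% of all genes) and 1 higher, with a median of -1.23, and 6 of the 9 stayed called in all fits with a library left out. Rice secretes deoxymugineic acid, made from nicotianamine, and takes up the ferric complex. Nicotianamine synthase 1 (OS03G0307300) stood at 176, 215 and 372 TPM in the field and at 942, 831 and 1119 TPM in control I (-1.98, SE 0.34, adjusted p = 0.00211). Nicotianamine synthases 2 (OS03G0307200, -1.50) and 3 (OS07G0689600, -1.78) fell as well, with the limit that close paralogs can share reads. The call of nicotianamine synthase 2 was lost without field replicate 1 (adjusted p = 0.0771), field replicate 2 (0.0588) or control I replicate 3 (0.0777). The antiporter OS11G0134900, of the family that exports deoxymugineic acid, stood at 15.9, 10.8 and 26.7 TPM against 143, 76.3 and 133 TPM (-2.69, SE 0.43, adjusted p = 0.00146). The uptake transporter for the complex (OS02G0650300) fell from 80.8, 41.7 and 66.0 TPM to 18.2, 8.44 and 24.5 TPM (-1.89, adjusted p = 0.00787). In each of these genes all field libraries lay below all control I libraries. The 1 risen member, OS03G0667500, similar to a metal transport protein, stood at 133, 66.3 and 354 TPM against 51.1, 35.1 and 34.0 TPM (1.87, adjusted p = 0.0244), and lost its call without any 1 of field replicates 1 and 3 and control I replicates 2 and 3 (adjusted p 0.0545 to 0.0908).

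Of 21 tested genes of suberin and cutin synthesis, which build the sealing layers of these cells, 7 were called lower (33.3%, beside 4.15% of all genes) and none higher, with a median of -0.48. The number called lower was 3 to 7 with 1 library left out. The fatty acid hydroxylase similar to CYP86A1 (OS01G0854800), which makes suberin monomers, stood at 14.7, 35.1 and 20.8 TPM in the field and at 71.3, 99.9 and 118 TPM in control I (-2.04, SE 0.31, adjusted p = 0.000988). A glycerol-3-phosphate acyltransferase (OS10G0413400), which joins the monomers to glycerol, fell from 19.3, 23.6 and 43.9 TPM to 5.42, 8.73 and 7.90 TPM (-1.78, adjusted p = 0.00549). A fatty acyl-CoA reductase (OS09G0567500), which makes the fatty alcohols, also kept its call in all fits with a library left out (-1.32, adjusted p = 0.00859), whereas the other 4 lost theirs in at least 1. Of 32 Casparian strip genes, 4 were called lower (12.5%, beside 4.15% of all genes) and 1 higher (3.12%, beside 2.24%), with a median of 0.15, so most members did not pass. The 3 that kept their call belong to the family UPF0497, which includes the scaffold proteins of the strip: OS12G0610800 (-2.03), OS07G0442900 (-1.70) and OS05G0245300 (-1.55).

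Of 69 lignin and phenylpropanoid genes, 8 were called lower (11.6%, beside 4.15% of all genes) and 3 higher (4.35%, beside 2.24%), at a median of -0.24. Leaving out 1 library gave 4 to 9 lower and 1 to 7 higher. Cinnamyl alcohol dehydrogenase 4 (OS11G0622800), of the last step of lignin monomer synthesis, stood at 135, 71.8 and 169 TPM in the field and at 740.2, 756 and 647 TPM in control I (-2.58, SE 0.44, adjusted p = 0.00234). Phenylalanine ammonia-lyase (OS04G0518100), the entry enzyme of the pathway, fell by 1.62 (adjusted p = 0.00538). Another gene similar to cinnamyl alcohol dehydrogenase (OS04G0612700) went the other way, from 8.27, 8.78 and 11.01 TPM to 49.5, 350 and 47.6 TPM (3.21, SE 0.58, adjusted p = 0.00302). Of 13 cellulose synthases, 5 were called lower (38.5%, beside 4.15% of all genes) and none higher, and 2 to 5 were called lower with 1 library left out. The cellulose synthase genes OS07G0252400 (-1.44) and OS07G0208500 (-1.40) were called in every fit with a library left out, and the 3 secondary wall members used as markers were not called.

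**Figure D3:**
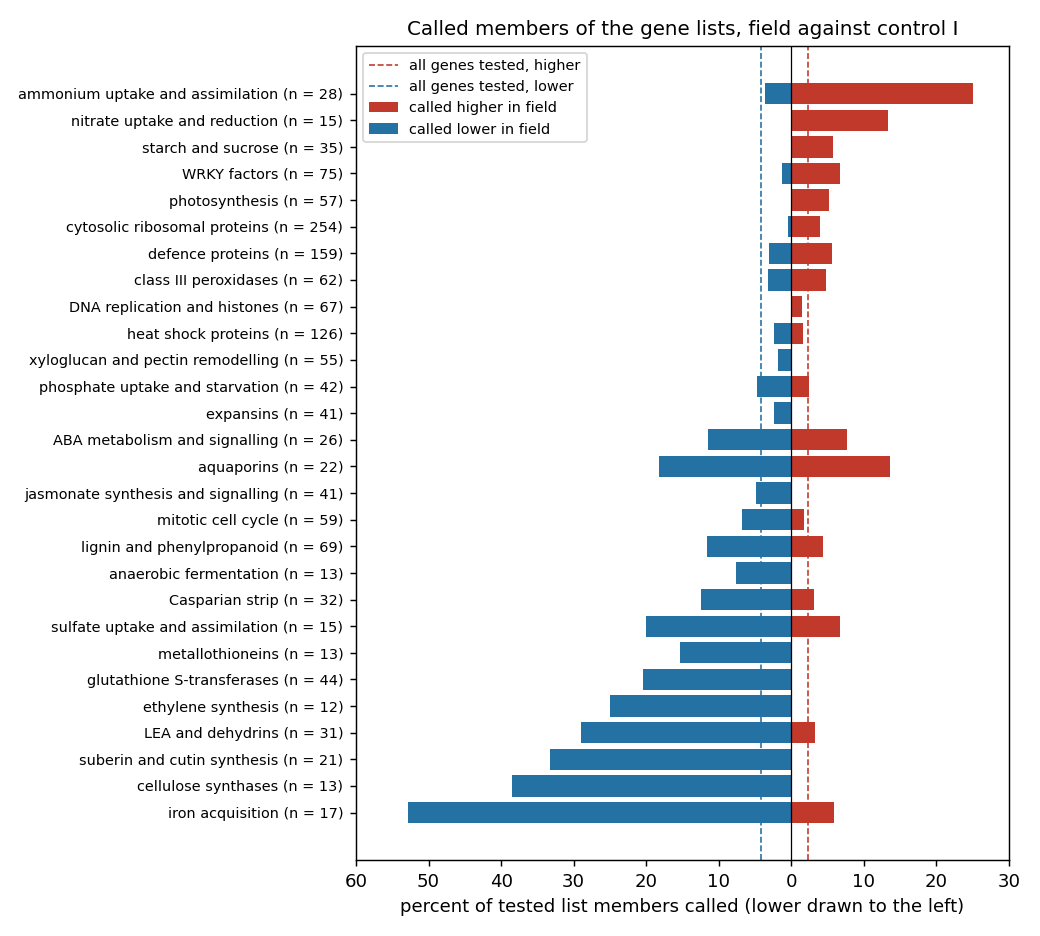
Percent of tested members of each gene list with at least 10 tested genes that were called higher (red, to the right) or lower (blue, to the left) in the field, with the shares among all 26069 genes as dashed lines at 2.24% and 4.15%. Iron acquisition has the longest bar to the left and ammonium uptake and assimilation the longest to the right.

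Of 31 dehydrins and other late embryogenesis abundant proteins, which accumulate in drying cells, 9 were called lower (29.0%, beside 4.15% of all genes) and 1 higher, with a median of -0.67. Fits without 1 library called 4 to 7 lower, and 4 of the 9 kept their call in all 6 such fits. RAB16D (OS11G0453900) stood at 11.4, 8.49 and 0.482 TPM in the field and at 37.1, 79.3 and 110.4 TPM in control I (-3.64, SE 0.67, adjusted p = 0.00327). RAB16C (OS11G0454000, -2.54) and RAB16B (OS11G0454200, -2.36) fell with it, and reads among these paralogs may be shared. The call of RAB16B was lost in the fit of the 6 libraries alone (adjusted p = 0.0613). Under water deficit the same line held 17470 TPM of RAB16D on average. The 1 risen member, a group 3 protein (OS01G0314800), stood at 233, 147 and 63.4 TPM against 18.7, 18.8 and 21.0 TPM (2.67, SE 0.47, adjusted p = 0.00261). A protein kinase of abscisic acid signalling (OS12G0586100) rose from 6.11, 8.403 and 6.95 TPM to 70.1, 37.7 and 75.7 TPM (2.88, SE 0.45, adjusted p = 0.00126), while over the whole abscisic acid list 2 of 26 genes were higher (7.69%) and 3 lower (11.5%). Glutathione S-transferases, which conjugate toxic compounds, had 9 of 44 lower (20.5%, beside 4.15% of all genes), none higher and a median of -0.77. Fits without 1 library called 4 to 12 lower, and 4 of the 9 kept their call throughout. In tau class GST 4 (OS10G0528300), which is not in the word-matched list but is among the largest falls, the field libraries held 18.6, 40.9 and 20.8 TPM and the control I libraries 117, 217 and 450.1 TPM (-3.11, SE 0.51, adjusted p = 0.00163).

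The largest rises of all were 2 adjoining genes with a quinoprotein alcohol dehydrogenase-like domain. OS02G0586000 stood at 95.9, 640.2 and 160 TPM in the field and at 2.56, 0.374 and 2.99 TPM in control I (6.32, SE 0.66, adjusted p = 6.42e-05). OS02G0585700 stood at 447, 2787 and 593 TPM against 11.5, 11.2 and 15.7 TPM (6.05, SE 0.67, adjusted p = 0.000101). Field replicate 2 was the highest library for both. The hypothetical gene OS02G0585650 beside them rose too (6.12), and it followed OS02G0585700 closely (r = 0.994 over the 18 LSI1 libraries). Reads of that pair may be shared, so OS02G0585650 need not be a separate rise. A class III chitinase (OS11G0701500) stood at 70.5, 153 and 95.8 TPM in the field and at 1.73, 0.831 and 2.02 TPM in control I (5.37, SE 0.53, adjusted p = 4.69e-05), and the glycoside hydrolases of family 18 OS11G0701600 (3.68) and OS05G0247800 (3.19), the family that holds such chitinases, rose as well. A cysteine peptidase (OS09G0565000) was under 0.31 TPM in every control I library and at 21.3, 105 and 22.0 TPM in the field, a difference of 4.88. A gene similar to MADS15 (OS07G0108900), a regulator known from the floral transition, was at most 0.333 TPM in control I and stood at 22.3, 15.3 and 9.26 TPM in the field, a difference of 3.75. These last genes were under 1 TPM in all other libraries of the LSI1 line and passed the filter on low values only through the field group, so no test of them is given. An EF hand protein (OS09G0482800) stood at 875.5, 1065 and 220.5 TPM in the field and at 61.8, 30.3 and 21.1 TPM in control I (4.07, SE 0.81, adjusted p = 0.00529).

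**Figure D4:**
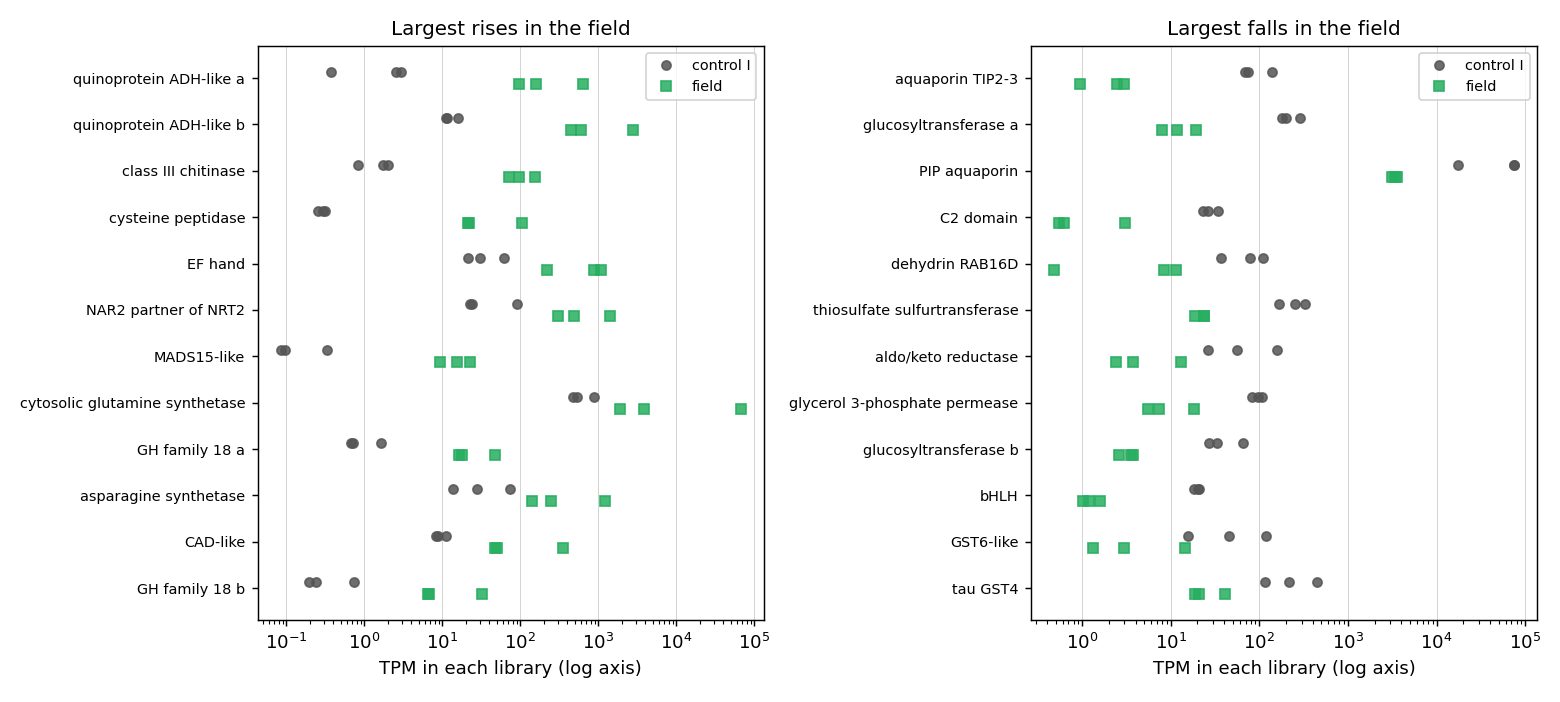
TPM in each library (log axis) for the 12 largest rises (left) and 12 largest falls (right) taken by the rule for named genes, with control I as grey circles and the field as green squares. The groups are separate in all 24 genes because the rule asked for it.

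Other large falls covered several enzyme classes. A glucosyltransferase (OS01G0638000) stood at 11.7, 7.94 and 19.5 TPM in the field and at 181, 201 and 290.4 TPM in control I (-4.05, SE 0.36, adjusted p = 1.59e-05). A thiosulfate sulfurtransferase (OS02G0102300), an enzyme of sulfur metabolism, held 18.8, 23.6 and 23.8 TPM against 326, 250.2 and 167 TPM (-3.38, SE 0.25, adjusted p = 3.23e-06). A basic helix-loop-helix factor (OS12G0632600) was at 1.20, 1.01 and 1.59 TPM against 20.4, 20.8 and 18.4 TPM (-3.21, SE 0.21, adjusted p = 1.23e-06), with little spread in either group. A C2 domain protein (OS07G0462500, -3.73), an aldo/keto reductase (OS04G0339400, -3.37), a gene similar to glycerol 3-phosphate permease (OS04G0555300, -3.23), a second glucosyltransferase (OS01G0734800, -3.22) and a GST6-like gene (OS09G0367700, -3.12) completed the set. The GST6-like gene lost its call in the fit of the 6 libraries alone (adjusted p = 0.0726). Of the 24 largest rises and falls together, 21 were called in all 6 fits with a library left out. Glutamine synthetase (OS03G0223400) lost its call in some of these fits, as given above. The cysteine peptidase and the MADS15-like gene could not be fitted with a field library left out, and no test of them is given.

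The waterlogged pots gave a second reference, with flooded roots but the same age and greenhouse as control I, so age, site and soil still differ from the field. Between the field and waterlogging 2404 of 26069 genes were called (9.22%), 885 higher (3.39%) and 1519 lower (5.83%) in the field. With the libraries shifted to the same median the split was 1118 higher and 1282 lower. This comparison shares its field libraries with the first, so values are set side by side. The quinoprotein genes OS02G0585700 (7.58) and OS02G0586000 (6.90), the class III chitinase (5.81), asparagine synthetase (4.98) and the cysteine peptidase (4.77) had the largest rises over waterlogging. The cysteine peptidase is given by value only, since it passed the filter on low values through the field group alone. Of 28 ammonium genes 6 were called higher than in waterlogging, and of 15 nitrate genes 5, with none lower and most members not called. Nitrite reductase (OS01G0357100) averaged 35.3 TPM in waterlogging and was called here (2.97, adjusted p = 0.016), except without field replicate 1 or waterlogging replicate 2. The lower calls held 8 of 17 iron genes and 8 of 21 suberin and cutin genes. In contrast, the PIP aquaporin (OS02G0823100, -0.91, adjusted p = 0.438) and TIP2-3 (OS04G0550900, -1.22, adjusted p = 0.393) were not called against waterlogging, where their means were 6959 and 10.1 TPM.

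Of 13 tested fermentation genes, which support energy supply when oxygen is short, none was called higher in the field than in control I and 1 lower, an aldehyde dehydrogenase (OS02G0730000, -1.23), with a median of 0.16. That call was lost without field replicate 1 (adjusted p = 0.0606) or control I replicate 3 (0.0603). Against waterlogging, 2 of the 13 genes were called lower in the field and 1 higher, with a median of -0.657. Of all genes, 5.83% were lower and 3.39% higher in that comparison. Pyruvate decarboxylase OS05G0469800 stood at 455, 2049 and 573 TPM in the field, 507, 714 and 949 TPM in control I and 2059 TPM on average in waterlogging, and it was called lower in the field than in waterlogging (-1.33, adjusted p = 0.0401). Alcohol dehydrogenase 1 (OS11G0210300) was at 62.8, 368 and 54.0 TPM in the field and at 68.2, 59.9 and 75.9 TPM in control I. Field replicate 2 was the highest field library for both, and the summed level of the list was 4388 to 13900 TPM in the field and 5778 to 7965 TPM in control I. The 5 largest falls against waterlogging were 3 genes of DNA-binding factors, DREB1B-like OS09G0522000 (-4.62), CBF1-like OS04G0572400 (-4.59) and RAP2-like OS08G0474000 (-4.52), and the calcium binding proteins OS01G0783700 (-4.45) and OS01G0955100 (-4.43). Their field levels were uneven, with OS09G0522000 at 8.25, 17.4 and 194 TPM beside a waterlogging mean of 795 TPM, and none was called against control I. Without field replicate 1 OS09G0522000 lost its call, and OS08G0474000 lost its call in 4 of the 6 fits with a library left out. Cytosolic ribosomal proteins were higher in the field than in waterlogging for 62 of 254 genes, with none lower and a median of 0.78. Of all genes, 3.39% were higher in that comparison. Against control I, 10 were higher (3.94%, beside 2.24% of all genes) and 1 lower, at a median of 0.52. With 1 library left out 4 to 17 were higher, 2 of the higher genes kept their call in all 6 such fits, and RPL18 itself varied between libraries as given above.

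The field difference was then compared with that of other lines in 1 fit of 24 libraries, by the interaction of environment and line. It differed from 35S, a line with a near-ubiquitous promoter, in 45 of 27322 genes (0.165%), from RSS1, a line of proliferating cells, in 602 (2.2%), and from QHB in 252 (0.922%). These counts fell to 13 (35S), 208 (RSS1) and 61 (QHB) without control I replicate 3, and to 22, 246 and 90 without control I replicate 2. Without field replicate 1 they were 24, 301 and 129. Without field replicate 3 the RSS1 and QHB counts were 388 and 132, and without field replicate 2 the RSS1 count was 398. On simulated data with a difference of 3 on the log2 scale, the test recovered 60 of 100 genes for 35S, 72 for RSS1 and 70 for QHB, so a gene not called here is not shown to respond alike.

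Both aquaporins with large falls differed from other lines. TIP2-3 (OS04G0550900) fell by 4.91 in LSI1 and averaged 1.12 and 1.32 TPM in control I and field of 35S, and the interaction was -4.91 (SE 0.692, adjusted p = 0.00326) and kept its call under all 15 alternatives. Against RSS1 and QHB its interactions were -3.20 (adjusted p = 0.0216) and -4.33 (adjusted p = 0.00659). The PIP gene (OS02G0823100) fell by 3.76 in LSI1, but its field difference was 0.22 in RSS1, 2.50 in QHB and -0.86 in 35S. Its interactions were -2.90 against 35S (adjusted p = 0.128), -3.98 against RSS1 (SE 0.739, adjusted p = 0.00919) and -6.26 against QHB (adjusted p = 0.00105). Its control I mean was 55380 TPM in LSI1 beside 802, 531 and 145 TPM in 35S, RSS1 and QHB. That LSI1 mean includes replicates 1 and 3, where the PIP gene held the first rank at a level set by the normalization. The sizes of its fall and of its interactions rest in part on that level. The glycerol 3-phosphate permease-like gene OS04G0555300 averaged 95.5 TPM in control I and 10.4 TPM in the field in LSI1, beside 27.5 and 35.1 TPM in RSS1 (interaction -3.59, SE 0.62, adjusted p = 0.00623).

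Among the opposite differences, the cysteine peptidase OS09G0565000 rose by 4.65 more in LSI1 than in RSS1 and by 3.84 more than in QHB. Its field means were 0.427 TPM in RSS1, 1.71 TPM in QHB, 6.95 TPM in 35S and 49.3 TPM in LSI1. It passed the filter on low values only through field libraries, so no test of it is given. A cytochrome P450 gene (OS11G0489250) fell in LSI1 from 47.6 to 9.02 TPM and stood higher in the field in RSS1 (13.6 and 50.6 TPM) and QHB (58.5 and 273 TPM), with interactions of -4.13 and -4.64. In QHB a crown root WUSCHEL-related gene (OS07G0684900) and a nuclear factor Y gene (OS07G0606600) were higher in the field (0.865 to 13.9 TPM and 5.95 to 62.2 TPM), whereas in LSI1 they fell from 5.10 to 0.716 TPM and from 183 to 56.7 TPM (interactions -4.84 and -4.96). In the fit of LSI1 libraries only, the fall of OS07G0684900 lost its call without field replicate 3 (limma adjusted p = 0.0515) or control I replicate 3 (0.0772). By contrast, the quinoprotein gene OS02G0585700 rose in all 4 lines, by 6.05 in LSI1, 5.19 in 35S, 5.77 in RSS1 and 5.81 in QHB. Its interactions were 0.86 (adjusted p = 1), 0.28 (adjusted p = 0.925) and 0.24 (adjusted p = 0.943), each with an SE of 0.924, which does not show that the lines responded alike.

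For the nitrogen genes the lines differed in value, but the test mostly did not pass. Glutamine synthetase (OS03G0223400) averaged 587 TPM in the field in 35S, 1134 in RSS1 and 378 in QHB, beside 24010 in LSI1, and its interactions were 3.44 (adjusted p = 0.403), 3.97 (adjusted p = 0.0838) and 2.24 (adjusted p = 0.43), each with an SE of 1.2. The LSI1 mean rests on field replicate 1, where the gene held the first rank at 66370 TPM. NAR2 (OS02G0595900) had interactions of 4.90, 4.14 and 2.96, at adjusted p of 0.0825, 0.0583 and 0.238. Asparagine synthetase (OS03G0291500) was called against RSS1 (4.35, adjusted p = 0.0473), where it averaged 180 TPM in control I and 113 TPM in the field, and it lost that call without field replicate 1, field replicate 2, control I replicate 2 or control I replicate 3.

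**Figure D5:**
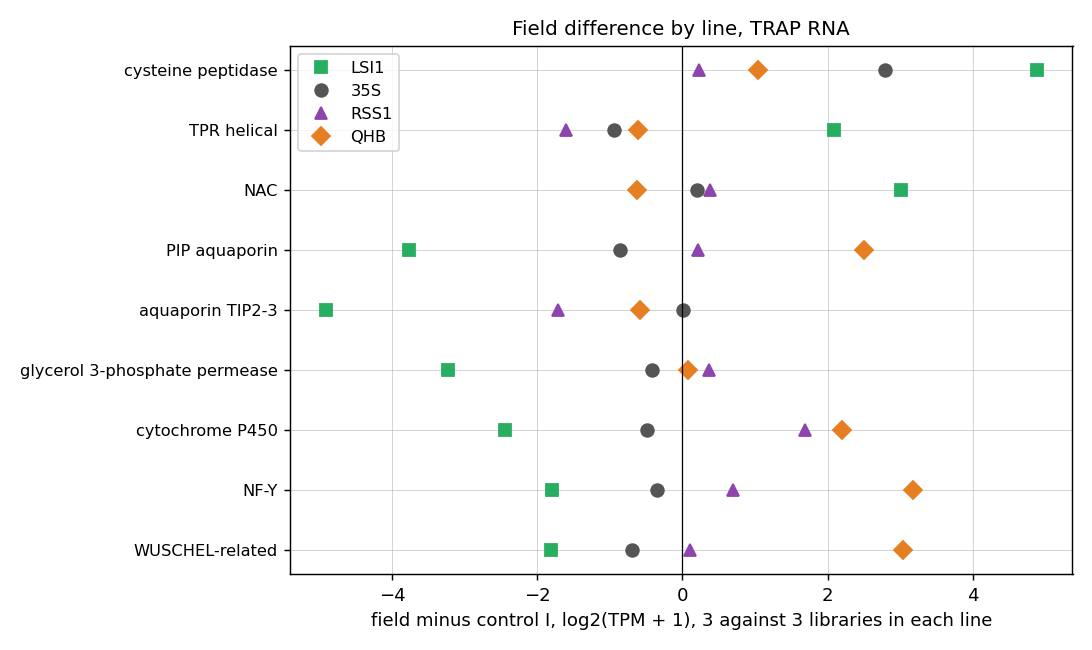
Field minus control I on the log2(TPM + 1) scale for 9 genes in LSI1, 35S, RSS1 and QHB TRAP RNA, each from 3 against 3 libraries of the line. LSI1 (green squares) lies farthest to the right for the cysteine peptidase, the TPR and the NAC genes and farthest to the left for the other 6.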

How the data were processed

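Ribosome-bound RNA of rice roots was measured in 3 field, 3 control I and 12 further libraries of the LSI1 line, grouped by their labels. The authors deposited 1 table of TPM for 28248 genes, made per the file headers from quantile-normalized reads (limma voom) with a CPM minimum of 3. Bowtie2, TopHat2, HOMER and the build IRGSP-1.0 are named in the submitters' processing notes, without tool versions. Quantile normalization equalizes the libraries' distributions, so depth is unknown and counting intervals cannot be given.

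From these values, log2(TPM + 1) was fitted with limma 3.58.1 (R 4.3.3) with empirical Bayes and a mean trend, over the 18 LSI1 libraries. A gene entered a fit when 3 or more of its libraries reached 1 TPM. Interactions with 35S, RSS1 and QHB came from a fit of 24 libraries. A gene was called at a Benjamini-Hochberg adjusted p under 0.05 over all tested genes and a difference of at least 1. The method was tested on simulated data: of 100 genes changed by 1.5 and by 3 on the log2 scale, it recovered 69 and 96 for field against control I.

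Named genes were the 12 largest rises and falls (5 against waterlogging, 4 per line interaction) among called genes with a described product, a mean of at least 5 TPM in the higher group and LSI1 groups that did not overlap, plus up to 4 called genes per list. Other genes named from the 33 lists were chosen after their values were seen. Comparison, lists and genes were chosen with earlier results of these data known. Lists were matched by words in the deposited descriptions. Alternatives changed the samples fitted, pseudocount, filter, scaling, trend, library weights and block, or left out 1 library. Chromatin data and sequences were not used here.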

Additional observations from a re-analysis of the deposited data

Results flagged for a closer look

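The field difference of the LSI1 line differed from that of another line, by the interaction test of limma, for 24 named gene and line pairs. Values are the LSI1 difference less that of the other line, on the log2(TPM + 1) scale. The cysteine peptidase (OS09G0565000) is counted among these pairs, but it passed the filter on low values only through field libraries. Its calls are therefore given no weight.

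Against 35S, a SOUL haem-binding protein (OS01G0850900) had 3.97, since its mean fell from 122 to 1.51 TPM in 35S and from 7.41, 8.94 and 12.6 TPM to 5.20, 1.16 and 3.04 TPM in the LSI1 libraries. A chloride channel-like gene (OS12G0438600, 3.38), a xyloglucan fucosyltransferase (OS08G0334900, 2.86) and a TauD-type dioxygenase (OS08G0383800, 2.50) were the other higher ones. TIP2-3 (OS04G0550900, -4.91), an epsin-like gene (OS06G0175500, -2.51), a receptor kinase-like gene (OS01G0227200, -1.92) and a bHLH gene (OS02G0276900, -1.92) were lower. Of these 8, TIP2-3 kept its call under all 15 alternatives, and each of the other 7 lost it under 3 to 8 of them.

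Against RSS1, the cysteine peptidase (OS09G0565000, 4.65), asparagine synthetase (OS03G0291500, 4.35), a tetratricopeptide-like gene (OS04G0510600, 3.69) and an ammonium transporter (OS01G0831300, 3.68) were higher. The tetratricopeptide-like gene averaged 22.9 TPM in control I and 103.8 TPM in the field in LSI1, and 71.1 and 26.6 TPM in RSS1. The P450 gene OS11G0489250 (-4.13), the PIP aquaporin (OS02G0823100, -3.98), the permease-like gene (OS04G0555300, -3.59) and the P450 gene OS01G0227400 (-3.41) were lower. Asparagine synthetase, the ammonium transporter and OS01G0227400 lost their calls under 7, 6 and 1 alternatives.

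Against QHB, centromeric histone 3 (OS05G0489800, 4.28), the cysteine peptidase (OS09G0565000, 3.84), a NAC factor (OS02G0745250, 3.64) and a P450 gene (OS07G0647200, 3.50) were higher, and each lost its call under at least 1 alternative. The PIP aquaporin (OS02G0823100, -6.26), the nuclear factor Y gene (OS07G0606600, -4.96), the WUSCHEL-related gene (OS07G0684900, -4.84) and the P450 gene (OS11G0489250, -4.64) were lower and kept their calls under all 15.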

How the results depend on the processing

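None of 181 called genes followed singly changed sign, whereas 24 of 76 genes that were not called did, among them RPL18 (OS03G0341100), nitrate reductase (OS02G0770800) and NRAMP5 (OS07G0257200). The field against control I count of 1666 was 946 in the fit of the compared groups alone, 990 to 1726 with 1 library left out, and 1494 to 1881 under the others; against waterlogging, leaving out 1 library gave 1720 to 2601 and the median moved from -0.0345 to 0.0479 with libraries shifted to the same median. For 35S the count of 45 was 15 with a pseudocount of 0.1, 563 with library weights and 13 to 60 with 1 library left out. For RSS1 the count of 602 (305 higher, 297 lower) was 360 with the compared groups alone (175 and 185), 370 with a pseudocount of 0.1 (164 and 206), 1233 with library weights and 208 to 406 with 1 library left out. For QHB the count of 252 was 43 with the compared groups alone, 440 with library weights and 61 to 249 with 1 library left out. The cause of these shifts was not tested.

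Of the 181 called genes, 72 kept their call in every alternative that could be run for them and 70 of these in all 15; 19 of the 181 had fewer than 15. The leave-one-out differences of the 24 genes that changed sign spanned OS01G0202800 -0.071 to 0.30, OS01G0358900 -1.06 to 0.11, OS01G0750300 -0.38 to 0.10, OS02G0232900 -0.44 to 0.47, OS02G0550800 -0.20 to 0.49 and OS02G0770800 -0.065 to 1.48. Further spans were OS02G0805200 -0.47 to 0.064, OS03G0341100 -2.20 to 0.31, OS03G0431200 -0.27 to 0.29, OS03G0712800 -0.24 to 0.20, OS03G0794500 -0.42 to 0.0065 and OS04G0490000 -0.29 to 0.12. The next were OS04G0659100 -0.88 to 0.36, OS06G0184000 -0.47 to 0.37, OS06G0265000 -0.42 to 0.16, OS06G0581000 -0.15 to 0.73, OS07G0257200 -0.045 to 0.57 and OS07G0658400 -0.70 to 0.11. The last were OS08G0468100 -0.70 to 0.86, OS08G0468700 -0.62 to 0.96, OS09G0346500 -0.59 to 0.37, OS11G0124300 -0.0795 to 0.053, OS12G0122000 -0.14 to 0.12 and OS12G0274700 -0.16 to 0.45. Under library weights OS02G0232900 0.22, OS03G0712800 0.13, OS04G0490000 0.033, OS11G0124300 0.048, OS12G0122000 0.032 and OS12G0274700 -0.20 changed sign, and with libraries shifted to the same median OS11G0124300 did (0.015). Same-numbered field and control I libraries did not clearly deviate together (r = -0.049, 0.04 and -0.192). With 3 libraries a group this cannot show whether the numbers pair samples. No pairing is stated, and the main fits use none. The replicate block gave 1758, 2522, 55, 640 and 259 calls for the 5 comparisons in the order above. With 3 libraries a group and no depth in the values, differences of low genes are understated and the first ranks are set by normalization.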

Other observations

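Of 159 tested defence proteins, 9 were called higher in the field than in control I (5.66%, beside 2.24% of all genes) and 5 lower (3.14%, beside 4.15%) by limma. With 1 library left out, 3 to 12 were higher and 0 to 5 lower. Of 75 WRKY factors, regulators of defence, 5 were higher (6.67%) and 1 lower, with 4 to 6 higher when 1 library was left out. A chitinase 1-like gene (OS10G0416500) stood at 10.1, 21.1 and 10.1 TPM in the field and at 0.577, 0.792 and 3.01 TPM in control I (2.64, adjusted p = 0.00379). The WRKY25-like gene OS08G0235800 rose by 1.28 (adjusted p = 0.0031) and OS12G0116400 by 1.45 (adjusted p = 0.00871). In the fit of the 6 libraries alone OS12G0116400 lost its call (adjusted p = 0.0597). Cell wall invertase (OS02G0534400), which splits sucrose outside the cell, stood at 113.5, 174 and 61.9 TPM against 23.5, 27.7 and 40.2 TPM (1.81, adjusted p = 0.00493). A peroxidase 40-like gene (OS08G0302000) rose by 2.48 and a peroxidase 17-like gene (OS09G0471100) by 1.86. Of 62 class III peroxidases 3 were higher (4.84%, beside 2.24% of all genes) and 2 lower (3.23%, beside 4.15%), with a median of 0.11.

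The remaining lists held few calls in number. Several of them are small, and their shares stand beside 2.24% of all genes higher and 4.15% lower. None of 9 clock genes and 4 strigolactone genes was called. Of 126 heat shock genes 2 were higher (1.59%) and 3 lower (2.38%). Of 41 jasmonate genes none was higher and 2 lower (4.88%), and of 42 phosphate genes 1 (2.38%) and 2 (4.76%). Of 15 sulfate genes 1 was higher (6.67%) and 3 lower (20%), and of 7 diterpenoid phytoalexin genes 1 (14.3%) and 3 (42.9%). With 1 library left out, 1 to 3 sulfate genes and 1 to 3 phytoalexin genes were lower. Of 67 DNA replication and histone genes 1 was higher (1.49%) and none lower, and of 59 mitotic genes 1 (1.69%) and 4 (6.78%). Of 57 photosynthesis genes 3 were higher (5.26%) and none lower. Of 41 expansins 1 was lower (2.44%), and of 55 xyloglucan and pectin genes 1 (1.82%), with none higher. Of 12 ethylene synthesis genes 3 were lower (25%), of 13 metallothioneins 2 (15.4%) and of 3 iron storage genes none, with none higher. With 1 library left out, 0 to 3 ethylene genes and 0 to 4 metallothioneins were lower.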
